A study of Mus musculus with 4 samples.

Results

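The proteasome subunit genes are the mouse genes whose symbols run from Psma to Psmg followed by a number, with Psmb8, Psmb9 and Psmb10, the catalytic subunits of the immunoproteasome, set apart. They were found by symbol alone, without use of any measured value, and 45 of the 24418 genes listed belonged to them. These were 8 alpha-ring genes (Psma) and 8 beta-ring genes (Psmb) of the core particle, 6 ATPase genes (Psmc) and 14 non-ATPase genes (Psmd) of the regulatory particle, 4 activator genes (Psme), the inhibitor gene Psmf1 and 4 assembly genes (Psmg). RNA was sequenced from Treg cells that had been sorted from spleens and lymph nodes of Foxp3YFP-Cre mice and held in culture for 3 h with PBS or with 100 ng/mL TSLP, a cytokine made by epithelial cells. All mice carried YFP fused to Cre in the Foxp3 locus, so that Foxp3+ cells could be sorted by their fluorescence, and no floxed allele is named for them. The mice of the study were sex-matched and 8 to 12 weeks old. Each group held 2 libraries, named here PBS 1, PBS 2, TSLP 1 and TSLP 2, and nothing states that the libraries of a group came from separate mice, so that p-values measure only the spread between these samples. The number of reads on genes was 11328132 (PBS 1), 10724392 (PBS 2), 11761234 (TSLP 1) and 10271571 (TSLP 2).

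The proteasome degrades proteins that carry ubiquitin chains. The core particle is a barrel of stacked rings, in which alpha subunits guard the entrance and the beta subunits Psmb5, Psmb6 and Psmb7 cut the protein chain. The regulatory particle caps the barrel, where non-ATPase subunits bind the ubiquitin chain and cleave it off, and a ring of ATPases unfolds the protein and feeds it in. In lymphocytes the catalytic subunits are partly exchanged for those of the immunoproteasome, which favours peptides that fit MHC class I, and antigen-activated T cells need proteasomes to grow and to remove signalling proteins and transcription factors.

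Before the subunits themselves, the libraries were compared by markers of the sorted cells. Foxp3, the transcription factor that defines Treg cells, was read at 222 (PBS 1), 472 (PBS 2), 407 (TSLP 1) and 470 (TSLP 2) cpm, the reads per 1000000 reads on genes. PBS 1 was the lowest of the 4 libraries for Foxp3. The 5 Treg and CD4 T cell markers (Foxp3, Cd4, Cd3e, Ctla4 and Il2ra) summed to 2592, 2899, 2805 and 3084 cpm in the same order, with Ctla4 the most abundant. Of the other cells that a lymphoid sort can hold, the CD8 T cell genes Cd8a and Cd8b1 summed to 13.4 (PBS 1), 7.83 (PBS 2), 8.84 (TSLP 1) and 11.97 (TSLP 2) cpm, mostly from Cd8b1. The 3 B cell genes summed to 0.618, 10.4, 4.08 and 9.35 cpm, with Cd79b the most abundant over the 4 libraries together, Cd79a above Cd79b in TSLP 1, and Cd79a and Ms4a1 at 0 reads in PBS 1. The 5 myeloid genes summed to 17.6, 11.9, 8.59 and 8.76 cpm, with Cd68 the most abundant except in TSLP 2, where Lyz2 was, and Adgre1 was at 0 reads in all 4 libraries. Ms4a1, Adgre1 and Csf1r were below the filter on low values, and none of the other markers reached an unadjusted p under 0.05 by limma. Since PBS 1 stood apart in Foxp3 and, as shown further on, in the subunit genes, fold changes that rest on it are also given without it, and the part of the markers of other cells in these differences was not tested.

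TSLP stimulation was not accompanied by a change that passed the test in any proteasome subunit gene. Of the 45 genes, 43 passed the filter on low values, which asked that 2 or more libraries reach a normalized count of 10. The core genes Psma8, the alpha subunit of germ cells, and Psmb11, the beta subunit of the thymic cortex, had 0 reads in all 4 libraries, where 3 reads, the limit that a count of 0 allows, were worth 0.255 to 0.292 cpm. Log2 fold changes of TSLP against PBS, on the scale of log2(normalized count + 1), were above 0 for 18 genes and below 0 for 25, with a median of -0.04 beside 0.01 over the 11392 genes tested. By limma with Benjamini-Hochberg adjustment over all genes tested, 0 of the 43 genes had an adjusted p under 0.05, as did 0.0% of all genes, and the smallest adjusted p of the subunit genes was 0.9999. At an unadjusted p under 0.05 the count was again 0 of 43, beside 1.69% of all genes, and the smallest unadjusted p was 0.0721. The edgeR and DESeq2 tests on the whole reads also gave 0 subunit genes at either threshold. When a PBS library was left out, the PBS group was 1 library, which was assumed to vary like the TSLP pair, whose spread alone gave the error. Without PBS 2, by limma, 8 subunit genes had an unadjusted p under 0.05, of which Psma5, Psma7, Psmb1, Psmb3, Psmb6, Psmd1 and Psmd13 were lower with TSLP and Psme4 higher, beside 16.3% of all genes tested (1858). Without PBS 1 it was 1 subunit gene, beside 2.31% of all genes (263), and the median log2 fold change of the subunit genes was 0.23 without PBS 1 and -0.23 without PBS 2. No gene had an adjusted p under 0.05 in either case. Over all genes tested the median log2 fold change was -0.01 without PBS 1 and -0.01 without PBS 2. The precision was limited, with a median standard error of 0.27 on the log2 scale for the subunit genes, and the 95% intervals do not show that the genes were unaffected.

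The TSLP values both exceeded both PBS values for 7 of the 43 genes (Psma2, Psma4, Psmd2, Psmd5, Psmd7, Psme4 and Psmf1), where 14.5% of all genes tested did so. Both lay below for 5 genes (Psma7, Psmb5, Psmd3, Psmd14 and Psmg4), where 14.4% of all genes did so. For the subunit genes these counts came to 16.3% and 11.6%, near the shares of all genes. With the trend of each library over exon length removed, 9 subunit genes were above and 3 below, beside 15.5% and 14.6% of the 10944 genes with a length, and with the length of the principal transcript 13 were above and 2 below, beside 15.6% and 15% of 10488 genes. For 32 of the 43 genes (74.4%) the gap between PBS 1 and PBS 2 was larger than the difference between the group means, beside 70.1% of all genes tested. The plot of normalized counts by library shows this gap beside the TSLP values.

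**Figure D1:**
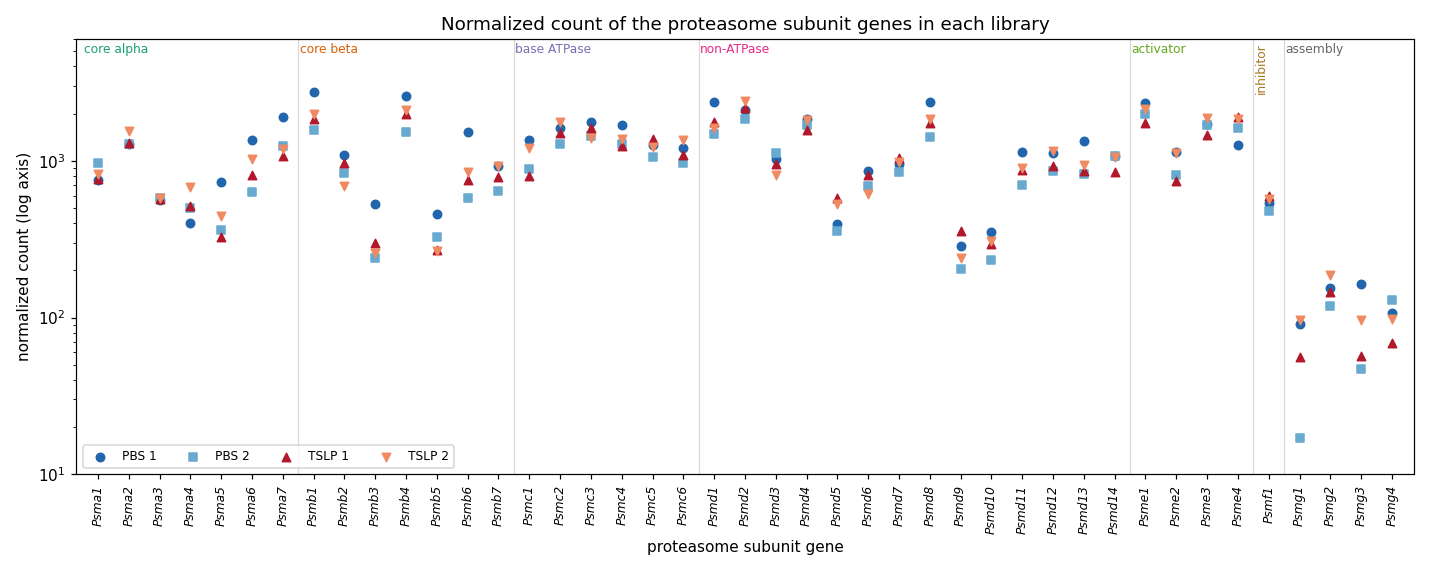
Normalized count (log axis) of each of the 43 proteasome subunit genes with reads, by class along the horizontal axis, with 1 point for each of the 4 libraries. PBS 1 (dark blue circles) is the highest point for 22 genes, among them 6 of the 7 beta-ring genes, and PBS 2 (light blue squares) the lowest for 23.

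The alpha ring forms the gated outer rings of the core. Its 7 genes with reads showed a median of -0.01 in log2 fold change, with 3 above 0 and 4 below. Psma7, which lies at chr2:180036374-180042433 on the minus strand (build GRCm38, as for all positions here), had normalized counts of 1903 (PBS 1), 1250 (PBS 2), 1069 (TSLP 1) and 1187 (TSLP 2). Both TSLP libraries were thus below both PBS libraries, but PBS 2 was closer to TSLP 2 than to PBS 1. The log2 fold change was -0.45 (SE 0.26, unadjusted p = 0.116, adjusted p = 0.9999), and it was -0.15 without PBS 1. Psma4, at chr9:54950790-54958030 on the plus strand, had 399 and 500 with PBS and 516 and 676 with TSLP. Its TSLP values were the higher ones, with a log2 fold change of 0.40 (SE 0.29, unadjusted p = 0.194) that became 0.24 without PBS 1. Psma5 and Psma6 varied most between the PBS libraries. Psma6 was at 1352 in PBS 1 and 628 in PBS 2, on either side of its TSLP values of 811 and 1033. Psma5 was at 733 in PBS 1 but at 359 in PBS 2, and at 328 and 446 with TSLP. In Psma5, 49.96% of the 50-base windows of the exons occur in another annotated gene as well, most often in Gm8394, and how such reads were counted is not given in the sources used here. Psma1 and Psma2 were steadier. Psma1 was at 752 and 971 with PBS and 771 and 824 with TSLP, and Psma2 at 1272 and 1280 with PBS and 1307 and 1538 with TSLP. Psma3 had the smallest spread over the libraries, with 558 and 577 with PBS and 569 and 578 with TSLP.

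The beta ring holds the active sites. Its 7 genes with reads had the lowest median log2 fold change of the classes, -0.22, with 2 above 0 and 5 below, and the median was 0.29 with 5 above 0 without PBS 1, and -0.51 with 0 above 0 without PBS 2. Psmb5, whose product cuts after hydrophobic residues, lies at chr14:54614119-54618022 on the minus strand. It had normalized counts of 457 (PBS 1), 327 (PBS 2), 270 (TSLP 1) and 266 (TSLP 2). Both TSLP libraries were below both PBS libraries, and the log2 fold change of -0.52 was the lowest of all subunit genes (SE 0.32, 95% interval -1.26 to 0.21, unadjusted p = 0.141). Without PBS 1 it was -0.28. Of the 50-base windows of Psmb5, 54.1% occur in another annotated gene, most often in Gm3375. Psmb6, whose product cuts after acidic residues, lies at chr11:70525367-70527858 on the plus strand and had 1524 (PBS 1), 582 (PBS 2), 757 (TSLP 1) and 850 (TSLP 2). The PBS libraries lay on both sides of the TSLP libraries. Its log2 fold change of -0.23 (SE 0.40, unadjusted p = 0.577) became 0.46 without PBS 1. Psmb7, whose product cuts after basic residues, lies at chr2:38588036-38644087 on the minus strand and had 922 and 645 with PBS and 790 and 923 with TSLP. Its groups overlapped as well, with a log2 fold change of 0.15 (SE 0.27, unadjusted p = 0.595). This was 0.40 without PBS 1 and -0.11 without PBS 2. Of the non-catalytic beta genes, Psmb4 had 2575 (PBS 1), 1518 (PBS 2), 1987 (TSLP 1) and 2101 (TSLP 2). The log2 fold change of 0.05 became 0.43 without PBS 1. This gave Psmb4, by limma, the only unadjusted p under 0.05 among the subunit genes when PBS 1 was left out (unadjusted p = 0.0431, against 1 library of PBS). Psmb3 was at 528 in PBS 1 and at 238, 301 and 259 in PBS 2, TSLP 1 and TSLP 2. Psmb2 was at 1088 and 841 with PBS and at 975 and 695 with TSLP, so that each group spanned much of the range. Psmb1 showed the same order of PBS 1 above the TSLP libraries and PBS 2 below them, with 2739 and 1570 with PBS and 1854 and 1996 with TSLP.

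The ATPases of the base unfold the substrate. None of the 6 genes had groups that did not overlap, their log2 fold changes ran from -0.17 (Psmc4) to 0.18 (Psmc2), and the median was 0.04. Psmc5 was among the steadiest of these genes, with normalized counts of 1271 and 1059 with PBS and 1369 and 1221 with TSLP. Psmc1 was more spread, at 1363 and 886 with PBS and 798 and 1206 with TSLP. The remaining ATPase genes lay between 961 (Psmc6 in PBS 2) and 1780 (Psmc2 in TSLP 2) over all libraries, and PBS 1 was the highest of the 4 libraries for 3 of the 6 genes.

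The 14 non-ATPase genes showed a median of -0.02 in log2 fold change, with 6 above 0 and 8 below. The class holds stable subunits such as Psmd4, a ubiquitin receptor, and Psmd14, the subunit that cuts ubiquitin chains off the substrate, as well as Psmd5, Psmd9 and Psmd10, which are chaperones that help assemble the base. Psmd5 had the lowest unadjusted p of all subunit genes. It lies at chr2:34849734-34874968 on the minus strand and had normalized counts of 394 (PBS 1), 358 (PBS 2), 579 (TSLP 1) and 529 (TSLP 2). The groups did not overlap and the gap between them was larger than the gaps within them. By limma the log2 fold change was 0.56 (SE 0.27, 95% interval -0.06 to 1.18, unadjusted p = 0.0721, adjusted p = 0.9999). It was 0.63 without PBS 1, 0.49 without PBS 2, 0.49 without TSLP 1 and 0.62 without TSLP 2. The other base chaperones overlapped between the groups, with 288 and 203 with PBS and 359 and 239 with TSLP for Psmd9, and 350 and 233 with PBS and 293 and 307 with TSLP for Psmd10. Psmd1 and Psmd2 are the large scaffold subunits of the base, and Psmd2 was at 2105 and 1847 with PBS and 2161 and 2401 with TSLP. Psmd1 was at 2388 (PBS 1), 1481 (PBS 2), 1765 (TSLP 1) and 1614 (TSLP 2). The lid subunits Psmd3 and Psmd14 had both TSLP values below both PBS values. Psmd3 had 1024 and 1119 with PBS and 961 and 807 with TSLP, for a log2 fold change of -0.28 (SE 0.23). It was -0.41 without TSLP 1 and -0.15 without TSLP 2. Psmd14 had 1071 and 1081 with PBS and 845 and 1063 with TSLP, so that TSLP 2 was close to the PBS libraries. Psmd4, the ubiquitin receptor, hardly moved, with 1841 and 1691 with PBS and 1580 and 1817 with TSLP, for a log2 fold change of -0.06 (SE 0.22). Psmd7, the partner of Psmd14 in the lid, was at 958 and 853 with PBS and 1049 and 976 with TSLP. Psmd8, Psmd11 and Psmd13 shared the order seen in the beta ring, with PBS 1 the highest and PBS 2 the lowest library. For Psmd8 these were 2373 and 1428 with TSLP values of 1746 and 1852, for Psmd11 1139 and 697 with 871 and 905, and for Psmd13 1340 and 821 with 864 and 936.

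Activators open the core without ATP. Psme1 and Psme2 form the ring that interferon gamma induces, Psme3 forms a nuclear ring and Psme4 is a large single-chain activator. Psme4, at chr11:30771726-30880361 on the plus strand, had 1260 and 1621 with PBS and 1914 and 1859 with TSLP. Both TSLP libraries were higher than both PBS libraries, with a log2 fold change of 0.40 (SE 0.23, 95% interval -0.11 to 0.91, unadjusted p = 0.112), and of 0.22 without PBS 1, the lower of the PBS libraries. Psme1 had 2347 and 1981 with PBS and 1742 and 2153 with TSLP, for a log2 fold change of -0.15 (SE 0.23) that ran from -0.31 to -0.0022 as each library was left out in turn. Psme2 had 1135 and 810 with PBS and 740 and 1121 with TSLP, for a log2 fold change of -0.07 (SE 0.29). For both genes of the ring TSLP 1 was the lowest library and the groups overlapped. In Psme2, 28.3% of the 50-base windows occur in another gene, all of them also in Psme2b, a single-exon copy at chr11:48945354-48946190, which had 445 and 347 with PBS and 313 and 476 with TSLP. Psme2b thus held the order of Psme2 in PBS 1 over PBS 2 and TSLP 2 over TSLP 1. Psme3 had 1720 and 1692 with PBS and 1468 and 1865 with TSLP, so that the PBS libraries lay between the TSLP libraries, with a log2 fold change of -0.04 (SE 0.23). Psmf1, an inhibitor of the core in vitro, had 540 and 481 with PBS and 599 and 571 with TSLP, for a log2 fold change of 0.20 (SE 0.26, unadjusted p = 0.465).

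The assembly chaperones, which help to build the alpha ring and then leave, were the least abundant class and the least precise. Psmg1 had 94 (PBS 1), 17 (PBS 2), 59 (TSLP 1) and 92 (TSLP 2) reads. PBS 2 stood far below the other libraries, so that the log2 fold change of 0.86, the highest of all subunit genes, had a standard error of 0.88 (unadjusted p = 0.351) and was 2.04 without PBS 1 and -0.31 without PBS 2. Psmg3 had 170, 47, 60 and 92 reads in the same order of libraries, again with PBS 1 far above PBS 2. The log2 fold change of -0.26 (SE 0.71) turned to 0.64 without PBS 1. Psmg2 had 159, 118, 155 and 179 reads, with a log2 fold change of 0.29 (SE 0.43) that was 0.48 without PBS 1 and 0.10 without PBS 2. Psmg4 had 111, 129, 73 and 94 reads, the only assembly gene with both TSLP libraries below both PBS libraries, and a log2 fold change of -0.51 (SE 0.52, unadjusted p = 0.347). The plot of fold changes with their intervals shows all 43 genes with and without PBS 1.

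**Figure D2:**
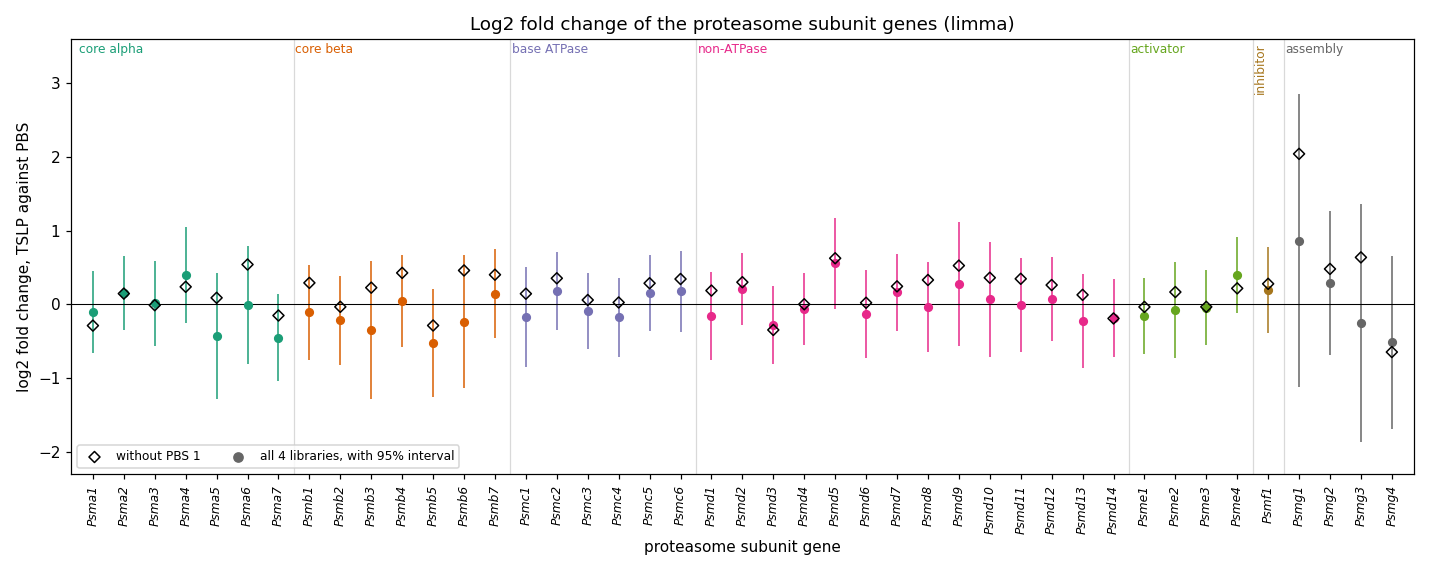
Log2 fold change of TSLP against PBS for each of the 43 subunit genes by limma, as filled points with 95% intervals and colours for the classes, and as open diamonds for the comparison without PBS 1. Every interval of the 4-library comparison includes 0, and Psmg1 has the widest interval. The diamonds lie above 0 for 33 genes against 18 of the filled points. Over all 11392 genes tested, 5496 lay above 0 without PBS 1 and 5838 with all 4 libraries.

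The levels of the subunit genes were compared per length, as cpm per kilobase of the principal transcript over the 4 libraries. The median over the 43 genes was 53.4, beside 10.9 over 10488 genes tested with such a length, and 39 of the 43 lay above that median. Psme1 had the highest mean at 170 ± 21.9 (SD, n = 4 libraries, as for all levels here), although Psmb4 was above it in PBS 1 and TSLP 1. Psmb4, Psma7, Psmd4 and Psmd8 came next at 159 ± 32.6, 136 ± 36.9, 120 ± 9.21 and 110 ± 22.7. The order of these means did not hold in every library. Psma7 was above Psmb4 in PBS 2, Psmd4 above Psma7 in both TSLP libraries and Psmd8 above Psmd4 in PBS 1. In the beta ring Psmb4 exceeded Psmb6 (107 ± 46.6) in all 4 libraries, but Psmb6 and Psmb1 (107 ± 25.3) did not keep an order. Of the catalytic subunits Psmb6 was followed by Psmb7 at 65.0 ± 10.4 and by Psmb5 at 33.7 ± 8.90. The mean of Psmb3 was 39.7 ± 15.6, but it was below Psmb5 in PBS 2, and the level of Psmb5 is uncertain because of its windows shared with other genes. In the alpha ring Psma7 was the highest in all 4 libraries and Psma3 the lowest at 18.4 ± 0.556. The ATPases Psmc4, Psmc3 and Psmc5 did not differ beyond their spread with this length, at 89.2 ± 12.9, 87.1 ± 8.25 and 85.8 ± 7.91. The chaperones Psmd5 and Psmd9 were the lowest of their class at 9.71 ± 2.15 and 9.61 ± 2.23, and Psmf1 was at 13.2 ± 1.11. The level of Psmd9 is uncertain too, since 24.95% of its 50-base windows occur in another gene, most often in Gm26745. The assembly genes ran from 16.8 ± 4.32 for Psmg4 to 5.71 ± 3.25 for Psmg1. These ranks depend on the transcript taken for the length. Per kilobase of the union of all exons Psmb4 was the highest at 96.2 before Psme1 at 85.6, Psma7 at 40.4 came after Psma6 at 71.1, Psmb5 at 33.7 came before Psmb7 at 22.0 and Psmb3 at 13.2, and Psmc5 at 81.0 came before Psmc4 at 59.4 and Psmc3 at 54.7.

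Summed over all 45 genes, the subunit genes took 4599 (PBS 1), 3584 (PBS 2), 3748 (TSLP 1) and 4190 (TSLP 2) cpm. The TSLP libraries lay between the PBS libraries, and the mean with TSLP was 0.970 times that with PBS. In bulk RNA less RNA per cell and fewer cells of a type cannot be told apart. The sum of the beta-ring genes was 895, 533, 626 and 660 cpm in the same order, 1.68 times as high in PBS 1 as in PBS 2. This ratio was 1.63 for the assembly genes, 1.26 for the ATPases and for the non-ATPase genes, 1.22 for the alpha ring and 1.03 for the activators. The plot of summed levels shows PBS 1 as the highest library in each class of the core and the regulatory particle.

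**Figure D3:**
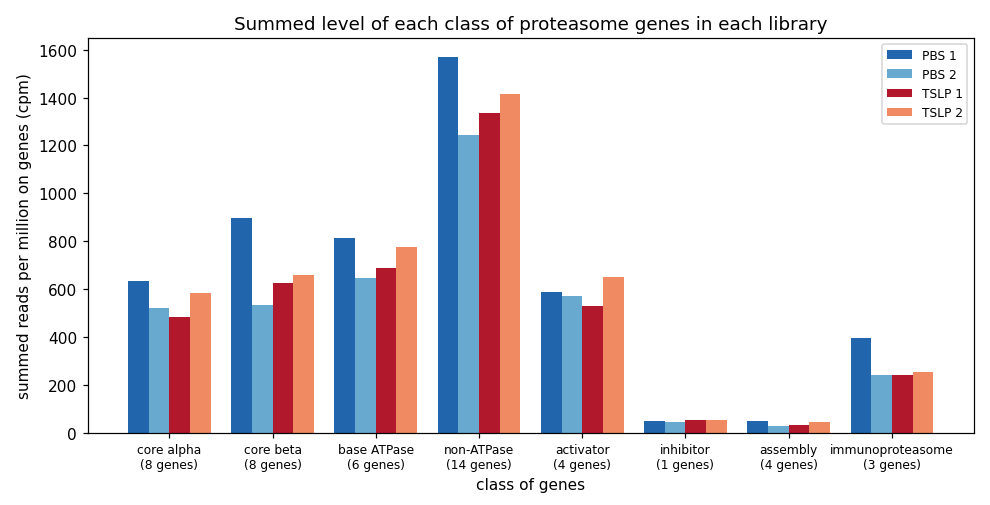
Summed cpm of each class of proteasome genes (bars from 0) in the 4 libraries, with the number of genes under each class. The beta-ring genes reach 895 cpm in PBS 1 against 533 to 660 in the other libraries, and the immunoproteasome genes 394 against 240 to 255.

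PBS 1 was the highest of the 4 libraries for 22 of the 43 genes (51.2%), where this held for 32.4% of all genes tested. PBS 2 was the lowest for 23 genes (53.5%), beside 21.8% of all genes. The median log2 ratio of PBS 1 to PBS 2 was 0.38 over the subunit genes, 0.76 over the beta ring and -0.01 over the alpha ring, and it was -0.02 over all genes tested. Between TSLP 1 and TSLP 2 the median log2 ratio was -0.15 over the subunit genes and 0.00 over all genes. This gap moved with exon length. Across the 43 genes the excess of PBS 1 over the mean of the other 3 libraries correlated with the length of the union of exons at a Spearman's rho of -0.40, and across 10944 genes tested with a length at -0.35. These are descriptions across genes of the same 4 libraries, and genes are not independent replicates. The median excess on the log2 scale was 0.48 for the 13 subunit genes under 2000 bases, 0.23 for the 20 from 2000 to under 4000 bases and 0.10 for the 10 of 4000 bases and over. Over all genes tested in the same ranges of length it was 0.48, 0.19 and -0.16. The subunit genes had a median exon length of 2808 bases, beside 4466 over all genes. After the trend of each library over exon length was removed, PBS 1 was the highest library for 11 of the 43 genes (25.6%), beside 30.5% of all genes, and the median log2 fold change of the subunit genes was 0.04. The median log2 ratio of PBS 1 to PBS 2 was then 0.12 over the subunit genes and 0.37 over the beta ring, beside -0.02 over all genes, and PBS 1 was still the highest library for all 3 immunoproteasome genes. What made PBS 1 differ with exon length was not tested.

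**Figure D4:**
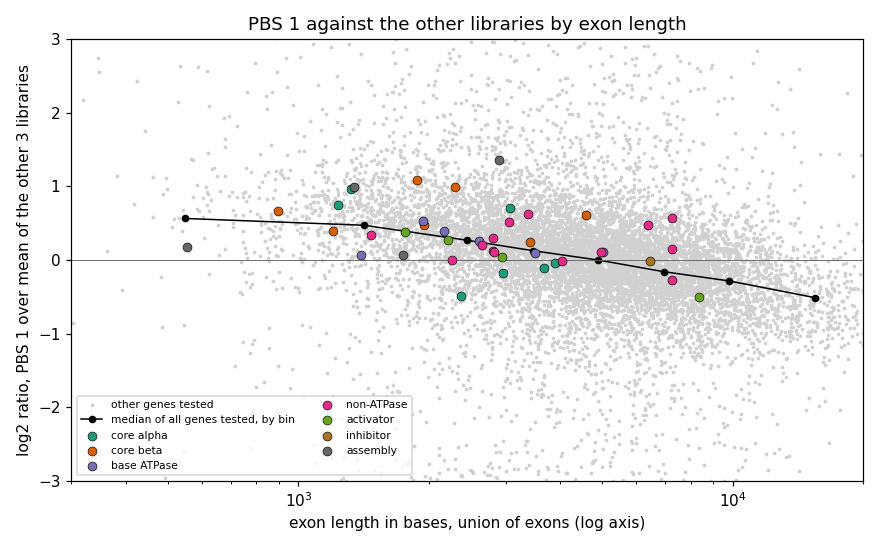
PBS 1 over the mean of the other libraries as a log2 ratio (vertical axis) against exon length in bases (log axis) for the 43 subunit genes, coloured by class, over all other genes tested in grey, with the medians of all genes tested by bin in black. The medians of all genes lie above 0 for short genes and below 0 for long ones, while the subunit genes of 4000 bases and over have a median of 0.10.

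The immunoproteasome subunits Psmb8, Psmb9 and Psmb10 replace Psmb5, Psmb6 and Psmb7. Psmb8 had normalized counts of 2696 (PBS 1), 1651 (PBS 2), 1658 (TSLP 1) and 1556 (TSLP 2), a log2 fold change of -0.39 (SE 0.27, unadjusted p = 0.176). This was -0.04 without PBS 1 and -0.75 without PBS 2, where PBS 1 was the only PBS library. Psmb9 had 701, 469, 516 and 484 in the same order and Psmb10 had 932, 482, 483 and 695, with log2 fold changes of -0.20 (SE 0.29) and -0.21 (SE 0.35), which were 0.09 and 0.26 without PBS 1. PBS 1 was the highest library for all 3 genes. Per kilobase of the principal transcript, the log2 ratio of Psmb8 to Psmb5 was 1.71 and 1.48 with PBS and 1.76 and 1.69 with TSLP, with the immunoproteasome form above the constitutive one in every library. Per kilobase of the union of exons this ratio was 0.65, 0.42, 0.71 and 0.63. Since 54.1% of the windows of Psmb5 are shared with other genes and how such reads were counted is not given, the level of Psmb5 and the sign of this ratio are uncertain. The ratio of Psmb9 to Psmb6 was -1.88 and -1.07 with PBS and -1.31 and -1.57 with TSLP, with the constitutive form the more abundant in every library. For both pairs the groups overlapped and differed by less than the spread between the PBS libraries. The ratio of Psmb10 to Psmb7 was -0.16 and -0.60 with PBS and -0.89 and -0.59 with TSLP. Its sign depends on the length, since per kilobase of the union of exons it was 1.02 and 0.58 with PBS and 0.29 and 0.60 with TSLP.

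**Figure D5:**
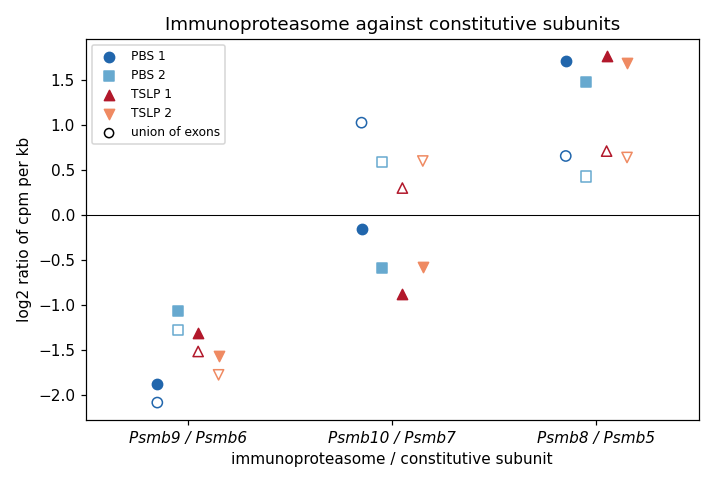
Log2 ratio of each immunoproteasome subunit to the constitutive subunit it replaces in the 4 libraries, from cpm per kilobase of the principal transcript (filled) or of the union of exons (open). Psmb8 is above Psmb5 and Psmb9 below Psmb6 in every library with either length, while the ratio of Psmb10 to Psmb7 is below 0 with the first and above 0 with the second. The level of Psmb5 is uncertain, since it shares windows with other genes.

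Nfe2l1 is the transcription factor known to raise proteasome genes when proteasomes are inhibited. It is held in the endoplasmic reticulum, freed of its sugars by Ngly1, cut by the protease Ddi2 and then binds antioxidant response elements, with letters that overlap those of AP-1 sites. The letters TGACNNNGC, the core of this element, were searched on both strands of the RefSeq promoter sequences of build GRCm38.p6, which run from 250 bases before to 50 after each gene's start. They were in 6 of the 40 promoters of the 37 subunit genes with a sequence (15%), beside 12.4% of 32851 promoters of all genes. A match is a description of letters, not of a bound site. The matches before the start of 5 of these genes are shown so that the letters can be read beside their positions, with the 9 matched letters in capitals and each sequence 5′ to 3′ on the gene's strand.
Psmb5 (chr14:54618019-54618057, minus strand, forward match): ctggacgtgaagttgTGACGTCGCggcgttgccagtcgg
Psmb6 (chr11:70525333-70525356, plus strand, forward match): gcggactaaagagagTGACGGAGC
Psmd9 (chr5:123228144-123228182, plus strand, forward match): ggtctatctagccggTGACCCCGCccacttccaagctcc
Psmc6 (chr14:45329582-45329620, plus strand, reverse match): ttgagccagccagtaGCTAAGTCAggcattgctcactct
Psmd12 (chr11:107479278-107479304, plus strand, reverse match): tctGCTGTGTCAcatttgcccccctca
Among these genes Psmb5 and Psmb6 had log2 fold changes below 0 and Psmc6, Psmd9 and Psmd12 above 0, at 0.18, 0.28 and 0.07. For Psmc6, Psmd9 and Psmd12 they were 0.02, 0.03 and -0.12 without PBS 2, and 0.34, -0.01 and 0.23 without TSLP 1. The match in the remaining promoter, that of Psme4, crosses the gene's start and is not printed, and its log2 fold change was 0.40. None of the 6 genes passed the test.

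The 6 regulators searched beside the subunits (Nfe2l1, Nfe2l2, Nfe2l3, Ddi2, Ngly1 and Stub1) had no unadjusted p under 0.05, with 4 log2 fold changes above 0 and 2 below. By limma, Nfe2l1 (unadjusted p = 0.0298) and Ddi2 (0.00111) passed that threshold without PBS 2, and Nfe2l3 (0.0108) without the variance trend, where 16.3% and 3.75% of all genes did so. Nfe2l1 had normalized counts of 1575 and 1816 with PBS and 2158 and 2209 with TSLP. Both TSLP libraries were higher than both PBS libraries, with a log2 fold change of 0.37 (SE 0.21, unadjusted p = 0.119) and of 0.27 without PBS 1. Ddi2 had 88 in PBS 1 but 540 in PBS 2, 477 in TSLP 1 and 510 in TSLP 2. Its log2 fold change of 1.17 (SE 0.68) rested on PBS 1 and was -0.13 without it. With a replicate block Ddi2 had an unadjusted p of 0.0308 by limma and of 0.0360 by edgeR, though nothing states that same-numbered libraries were paired. Ngly1 had 505 and 398 with PBS and 377 and 450 with TSLP. Nfe2l3, a relative of Nfe2l1, was at 22 and 35 reads in the PBS group against 6 and 8 with TSLP, for a log2 fold change of -1.85 (SE 1.24, unadjusted p = 0.172).

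Of 9 factors that associate with the proteasome, 8 were found by symbol, with 3 log2 fold changes above 0, 5 below, and 0 at an unadjusted p under 0.05. Without PBS 2, by limma, 3 of the 8 passed that threshold, Akirin2 (unadjusted p = 0.0416), Pomp (0.0207) and AI314180 (0.00391), beside the 16.3% of all genes given above. Akirin2, which brings proteasomes into the nucleus, had 1296 and 1031 with PBS and 867 and 941 with TSLP, so that both TSLP libraries were lower, with a log2 fold change of -0.36 (SE 0.24, unadjusted p = 0.168) and -0.19 without PBS 1. Pomp, the chaperone that matures the beta ring, had 1178 in PBS 1 and 668, 662 and 759 in the other libraries, so that PBS 1 was again the highest. The scaffold gene listed as AI314180 was at 944 in PBS 1 and at 1933, 1831 and 1739 in PBS 2, TSLP 1 and TSLP 2, the opposite order. Usp14, a deubiquitinase on the regulatory particle, had 720 and 619 with PBS and 653 and 784 with TSLP.

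Upstream of the proteasome, the 4 ubiquitin and E1 genes analysed here had 0 unadjusted p-values under 0.05, as had the 11 shuttle and segregase genes. Of the former, the 2 with the highest log2 fold changes are described. The polyubiquitin gene Ubb was highest in TSLP 1 at 1455 beside 819, 870 and 720 in PBS 1, PBS 2 and TSLP 2. Uba6, a ubiquitin-activating enzyme with a long transcript, was at 348 in PBS 1 and 859, 942 and 808 in the others, and its log2 fold change of 0.67 (SE 0.39) was 0.02 without PBS 1. The shuttle Ubqln1, at 2639 and 2515 with PBS and 2360 and 2545 with TSLP, and the cofactors of the segregase Vcp, Faf1 and Nploc4, were steady. Their log2 fold changes were -0.07 (SE 0.21), -0.06 (SE 0.28) and 0.16 (SE 0.21). Without PBS 2, by limma, Uba6 had an unadjusted p of 0.00366, and Ddi2, which is on the shuttle list too, was the only gene of that list under 0.05, beside 16.3% of all genes.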

How the data were processed

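Sorted Treg cells were compared as PBS against TSLP, 2 libraries each. The authors extracted RNA, prepared libraries with a directional kit, sequenced 50-base single-end reads, mapped them to mm10 with HISAT2, counted genes with HTSeq and used DESeq2; the annotation and strand setting of the counting are not given in the sources used here. The deposited values are a signal: per library, the authors divided each gene's count by a size factor. Division by the smallest step gave whole reads within 0.01 for 100% of values, and 27 gene names had turned into dates, none of them a proteasome gene.

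Values were tested as log2(normalized count + 1) by limma 3.58.1 (lmFit, eBayes with trend, R 4.3.3) over the 11392 genes whose normalized count reached 10 in 2 or more libraries, with Benjamini-Hochberg adjustment. edgeR 4.0.16 and DESeq2 1.42.0 on the recovered reads were alternatives. The fits were tested on simulated data. Exon lengths, principal transcripts and positions came from the GENCODE annotation of GRCm38, on which 50-base windows shared between genes were counted. Levels are cpm per kilobase of the principal transcript. Alternatives were other normalizations, pseudocounts of 0.5 and 5, other filters, no variance trend, a replicate block, removal of the trend over length (lowess) and leaving out each library. Named in full were the catalytic, activator, inhibitor and assembly genes, the 3 members with the highest and the 3 with the lowest log2 fold change, and the 2 highest and 2 lowest of each companion list; other members may be named. Of the ubiquitin list only the 2 highest are named, and its 2 lowest are not reported here. Psmb4 without PBS 1 was chosen after its value was seen. The members were set by symbol alone, while their classes and the companion lists were chosen with earlier results of these data known. Limits of detection cover counting error only, while the 95% intervals of fold changes come from the spread between libraries.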

Additional observations from a re-analysis of the deposited data

How the results depend on the processing

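With 2 libraries a group, each of 10271571 to 11761234 reads on genes, changes of the size of the standard errors were not detectable. No gene had an adjusted p under 0.05 in any alternative. Of the 11392 genes tested, 192 had an unadjusted p under 0.05 by limma, and 234 with edgeR. The number was 427 without the variance trend, 258 with a replicate block and 215 with edgeR and a replicate block. With no filter on low values it was 358 of the 13945 genes with a read, 315 of them among the 11392. The replicate numbers gave no pairing, since same-numbered libraries deviated from their group means with a correlation of 0.00072, and under the block 0 subunit genes had an unadjusted p under 0.05, with Ddi2 the only named gene that did (p = 0.0308, and 0.0360 with edgeR). By limma, Nfe2l3 was the only one without the variance trend (unadjusted p = 0.0108), and 10 of the 31 named genes, some of them named for their fold change, passed without PBS 2, as did 16.3% of all genes.

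Leaving out each library in turn gave 79 to 1858 genes and 0 to 8 subunit genes with an unadjusted p under 0.05, the highest without PBS 2, and medians of the subunit genes of -0.23 to 0.23, the highest without PBS 1. Over all genes tested these medians ran from -0.01 to 0.03. With the trend over exon length removed, 3 of the 43 subunit genes lay lower and 9 higher in both TSLP libraries. Beside them stood 14.6% and 15.5% of all genes with an exon length. With the length of the principal transcript, an alternative chosen after seeing the data, 2 lay lower and 13 higher, beside 15% and 15.6% of all genes. The share of subunit genes lying higher was then larger than that of all genes, which was not tested. Removal of the exon length trend turned the log2 fold changes of Psme2 to 0.075, Psme3 to 0.042 and Usp14 to -0.0021, and the principal transcript turned Psme1 to 0.012 and Psme2 to 0.11. Among the named genes, leaving out each library in turn gave log2 fold changes that changed sign for Psmb6 (-0.925 to 0.462), Psmb7 (-0.110 to 0.404), Psme2 (-0.373 to 0.225), Psme3 (-0.217 to 0.129), Psmg1 (-0.313 to 2.04), Psmg3 (-1.15 to 0.638), Psmb9 (-0.487 to 0.091), Psmb10 (-0.685 to 0.265), Pomp (-0.732 to 0.085), Usp14 (-0.033 to 0.231), AI314180 (-0.115 to 0.918), Ngly1 (-0.293 to 0.049), Ddi2 (-0.132 to 2.47) and Ubb (-0.229 to 0.784), with the cause not tested. The other 17 of the 31 named genes kept their sign in these comparisons, with ranges that included -0.755 to -0.149 for Psma7, -0.764 to -0.285 for Psmb5, 0.219 to 0.582 for Psme4, -0.768 to -0.260 for Psmg4, -0.747 to -0.039 for Psmb8 and 0.022 to 1.32 for Uba6.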
